A study of Mus musculus with 21 samples.

Results

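The Hox genes are the homeobox genes of 4 chromosomal clusters, A to D, and all 39 of them were followed here in skin and inguinal lymph nodes of *Ifnk* transgenic (TG) and wild-type (WT) mice. Members were the genes whose symbol is Hox followed by a cluster letter and a paralog number, 39 of the 55487 genes listed. The rule used symbols alone, but the family was chosen with earlier results of these data known. Cluster A (chromosome 6) holds 11 of them, cluster B (chromosome 11) 10, cluster C (chromosome 15) 9 and cluster D (chromosome 2) 9. In lesional (L) skin, 12 of the 29 members that could be tested were lower than in WT skin, with paralog numbers from 4 to 10, and *Hoxc13* alone was higher, where 20.2% of all tested genes were lower and 23.0% higher. The L libraries also differed from each other in which Hox genes they expressed.

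Hox proteins are homeodomain transcription factors that give cells their position along the body axis of the embryo. The genes of a cluster are ordered by paralog number: low numbers are switched on toward the head, high numbers toward the tail and the ends of the limbs. Adult skin keeps a Hox pattern that depends on body site, carried mainly by dermal fibroblasts, and the dermis of the face comes from neural crest cells that largely lack Hox expression. *Hoxc13* has a further role in the hair follicle, where it activates hair keratin genes.

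The skin libraries came from WT BALB/c mice (3 libraries, numbered 8, 9 and 10), nonlesional (NL) skin of *Ifnk* TG mice (2 libraries, 2 and 3) and L skin of *Ifnk* TG mice (4 libraries, 4 to 7), all at 12 months of age and without treatment. The transgene drives *Ifnk*, the gene of interferon kappa, from the keratin 14 promoter and so in the epidermis, and the line was made on C57BL/6 and then backcrossed to BALB/c. The lymph node libraries came from WT and *Ifnk* TG mice whose age in months the labels do not give. There were 3 per genotype without irradiation and 3 per genotype after UVB (250 mJ/cm2 on 3 days a week for 2 weeks, then 2 weeks of observation). The nodes were passed through a cell strainer before lysis. The labels place every library in batch 1 and give no body site, sex or mouse. By the study's account lesions formed mostly on the face, and also on the back and occasionally the extremities, L skin was taken wherever a lesion was present, and NL skin came from the back and from sites like those of the lesions. Which site each library came from is not given in the labels, so lesion and body site cannot be told apart in any comparison with L skin. Nothing says that the libraries of a group came from separate mice, so p-values measure the spread between these libraries only.

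Skin libraries held 40499078 to 56511276 counts and lymph node libraries 27599809 to 36428435. Values are CPM, counts scaled to a common library total after TMM scaling, levels of different genes are compared only as CPM per kilobase of exon, and a gene is called detected at 0.5 CPM or more. Paralogs 1 to 3 are termed anterior, 4 to 8 central and 9 to 13 posterior. The skin libraries expressed their defining keratinocyte markers, with a mean log2 CPM over the 10 genes between 8.76 and 9.85 in every library, and the lymph nodes the 10 leukocyte markers, between 6.58 and 7.16. Skeletal muscle, fat and vessel markers were lower in L skin. Against WT skin, edgeR called 5 of 10 muscle genes, 5 of 8 adipocyte genes and 5 of 7 endothelial genes lower. Over all tested genes the share called lower was 20.2%. DESeq2 called 2, 7 and 6 genes of these lists lower, and against NL skin edgeR called 0, 1 and 1. Summed muscle markers spanned 27.4 to 7412 CPM in L skin against 28830 to 40090 CPM in WT skin and 27240 to 31620 CPM in NL skin. In bulk tissue, fewer cells of a type and less RNA per cell cannot be told apart.

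Promoter windows of 4 central members, 1 per cluster, are shown to place the genes that the results turn on. Each runs from 250 bases before to 50 bases after a RefSeq start on GRCm38.p6. *Hoxa5* (chr6:52204538-52204837, minus strand) fell in L skin, *Hoxb8* (chr11:96281655-96281954, plus strand) differed widely among L libraries, *Hoxc4* (chr15:103034145-103034444, plus strand) did not pass the test, and *Hoxd8* (chr2:74704365-74704664, plus strand) fell in L skin with every L library below the others. Capitals mark motifs found on either strand. The first is the TATA box with the letters TATAAA, which places the start of transcription. The second is spelled CCAAT and is a common promoter element bound by NF-Y. The third, the GC box, reads GGGCGG and is bound by Sp factors. The last is the site of a Hox protein together with its Pbx partner, with letters TGATNNAT in which N is any base.
Hoxa5: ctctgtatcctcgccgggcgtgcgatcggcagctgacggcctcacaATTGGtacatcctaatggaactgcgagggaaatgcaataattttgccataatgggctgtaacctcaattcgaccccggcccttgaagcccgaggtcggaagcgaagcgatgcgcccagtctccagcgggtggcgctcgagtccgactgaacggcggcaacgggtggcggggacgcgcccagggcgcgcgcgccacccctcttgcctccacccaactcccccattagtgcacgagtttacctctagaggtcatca
Hoxb8: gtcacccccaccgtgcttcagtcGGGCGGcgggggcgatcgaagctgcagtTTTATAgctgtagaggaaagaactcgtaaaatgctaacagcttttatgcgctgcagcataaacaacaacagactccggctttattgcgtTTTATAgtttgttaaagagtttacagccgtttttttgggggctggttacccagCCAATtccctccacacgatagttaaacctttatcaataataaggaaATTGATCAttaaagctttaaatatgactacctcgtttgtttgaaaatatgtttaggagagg
Hoxc4: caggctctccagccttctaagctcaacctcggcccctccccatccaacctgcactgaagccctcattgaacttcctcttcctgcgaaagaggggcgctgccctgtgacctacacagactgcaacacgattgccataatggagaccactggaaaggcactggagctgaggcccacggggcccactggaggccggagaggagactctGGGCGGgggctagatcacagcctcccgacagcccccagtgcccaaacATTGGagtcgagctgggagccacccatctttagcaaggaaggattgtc
Hoxd8: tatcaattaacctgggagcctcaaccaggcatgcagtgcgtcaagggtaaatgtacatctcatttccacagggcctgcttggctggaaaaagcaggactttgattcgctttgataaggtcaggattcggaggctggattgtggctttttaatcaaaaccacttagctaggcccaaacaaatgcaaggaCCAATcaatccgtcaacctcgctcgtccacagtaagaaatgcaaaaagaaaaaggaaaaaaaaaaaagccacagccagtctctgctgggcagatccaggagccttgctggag
By letters alone, the *Hoxb8* window held 2 matches to the TATA box, 1 CCAAT box, 1 GC box and 1 Hox-Pbx site. Both TATA matches of *Hoxb8* read on the strand opposite to the gene and lay upstream of its start. Whether either match places that start was not tested. The *Hoxc4* window held 1 CCAAT box and 1 GC box, and the *Hoxa5* and *Hoxd8* windows 1 CCAAT box each. Over the 22 members with a window, 15 held a CCAAT box against 37.4% of 32544 mouse promoters, 10 a GC box against 35.9%, 4 a TATA box against 13.6%, 4 a Hox-Pbx site against 8.79% and 1 the Hox core TAATTA against 5.29%. A member counted when any of its windows held the motif, with 24 windows for the 22 members, while the shares over all promoters count single windows. None of the motifs contains another. The median number of CpG dinucleotides was 14.5 per Hox window and 7 per window over all promoters, and the median GC content was 57.7% and 53%.

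In WT skin, 25 to 28 of the 39 Hox genes were detected per library, and each cluster was detected up to paralog 9 or 10, leaving aside *Hoxc13*. Per kilobase, *Hoxd8* was the highest at 14.95 ± 1.60 CPM (SD, n = 3), followed by *Hoxa7* at 12.1 ± 1.98 and *Hoxc8* at 8.14 ± 1.63. The library ranges of *Hoxd8* and *Hoxa7* overlapped, and those of *Hoxa7* and *Hoxc8* did not, with a lowest *Hoxa7* value of 10.1 and a highest *Hoxc8* value of 9.92 CPM per kilobase. *Hoxc6* (5.43 ± 0.821), *Hoxd9* (5.00 ± 0.309), *Hoxa5* (4.21 ± 0.862) and *Hoxb7* (4.01 ± 0.808) came next, and each overlapped its neighbour in this order. Of the exonic bases of *Hoxa7*, 20.4% overlap the antisense gene *Hoxaas3*. Whether strand was used in counting is not given in the sources used here, so *Hoxa7* values in skin and nodes are uncertain to that extent. The 10 members too low for the test were *Hoxa11*, *Hoxa13*, *Hoxb1*, *Hoxb13*, *Hoxc11*, *Hoxc12*, *Hoxd1*, *Hoxd11*, *Hoxd12* and *Hoxd13*. None was above 0.220 CPM in any skin library, and 3 of these, *Hoxb13*, *Hoxd12* and *Hoxd13*, had 0 counts in all 9.

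**Figure D1:**
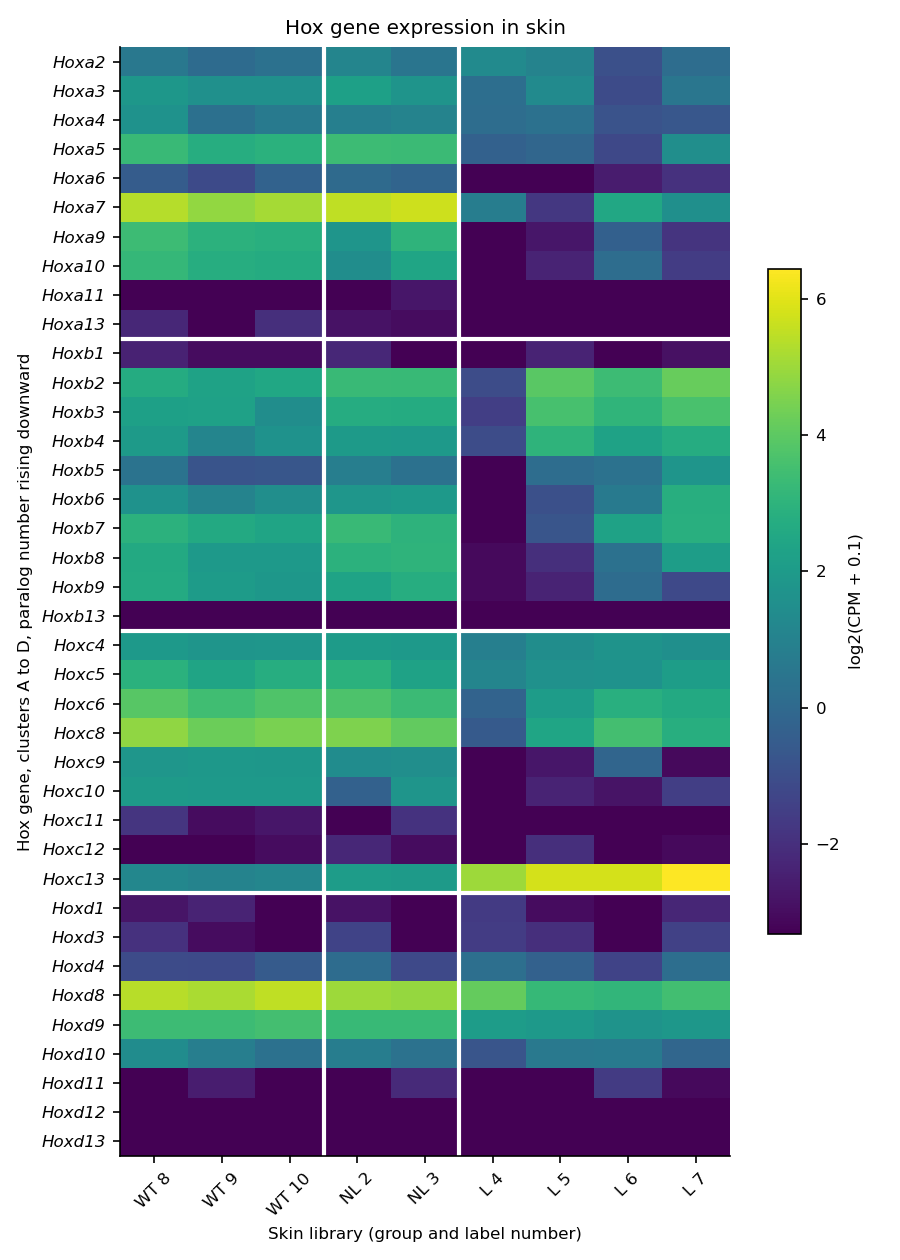
Expression of 38 Hox genes (rows, by cluster and paralog number) in the 9 skin libraries (columns, by group and label number), as log2(CPM + 0.1), with white lines between clusters and groups. Among other genes, *Hoxa5*, *Hoxa6*, *Hoxa7*, *Hoxa9*, *Hoxa10*, *Hoxc9* and *Hoxc10* are darker in every L library than in any WT or NL library. L library 4 is dark throughout cluster B, and *Hoxc13* is bright in all 4 L libraries.

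The first comparison, L against WT skin, asks how lesions of aged *Ifnk* TG mice differ from healthy skin. Of 29 tested members, 12 were lower and 1 was higher in L skin (adjusted p under 0.05, edgeR's quasi-likelihood test), to be read against the 20.2% and 23.0% of all tested genes. All L libraries lay below all WT libraries for 15 members, which held for 23.4% of tested genes. The median log2 fold change was −1.25 over the Hox genes and 0.06 over all tested genes. By class, 0 of 6 anterior members passed the test in edgeR (1, *Hoxa3*, at an unadjusted p under 0.05, and the same gene alone with DESeq2), 6 of 15 central members were lower, and 6 of 8 posterior members were lower with *Hoxc13* higher.

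By calls, cluster A fell most broadly, with 6 of 9 tested members lower. All L libraries lay below all WT libraries for 6 of 9 members in cluster A and 6 of 7 in cluster C, against 23.4% of all tested genes. *Hoxa7*, a central gene first known from trunk patterning, was at 40.3, 28.9 and 34.9 CPM in WT skin, at 45.8 and 51.8 in NL skin and at 1.68, 0.197, 5.64 and 2.77 in L skin. The L libraries lay far below the rest and differed among themselves, with library 5 lowest and library 6 highest. The log2 fold change was −3.75 (SE 0.75, adjusted p = 0.00522, edgeR), a 13.5-fold lower level.

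*Hoxa9*, a posterior gene that also acts in blood stem cells, was at 10.2, 7.64 and 7.05 CPM in WT skin, 3.27 and 8.09 in NL skin and 0, 0.0493, 0.705 and 0.180 in L skin. *Hoxa10*, its neighbour, known for its role in the uterus and the lumbar spine, was at 9.03, 6.65 and 6.28 CPM in WT skin, 2.64 and 5.27 in NL skin and 0, 0.0987, 1.01 and 0.234 in L skin. Both were below every WT and NL library in all 4 L libraries, absent from the counts of library 4 and highest in library 6. Their log2 fold changes against WT skin were −5.15 (SE 0.95, adjusted p = 0.00349, edgeR) for *Hoxa9* and −4.45 (SE 0.98, adjusted p = 0.00751, edgeR) for *Hoxa10*.

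*Hoxa5*, which patterns the neck and upper thorax and is needed for lung development, was at 9.72, 6.62 and 7.34 CPM in WT skin, 10.3 and 10.1 in NL skin and 0.728, 0.839, 0.330 and 2.7 in L skin, with a log2 fold change of −2.76 (SE 0.59, adjusted p = 0.00631, edgeR). *Hoxa6* was low throughout, at 0.616, 0.356 and 0.742 CPM in WT skin, 0.936 and 0.785 in NL skin and 0, 0, 0.0661 and 0.162 in L skin, with a log2 fold change of −3.21 (SE 0.90, adjusted p = 0.0192, edgeR). In neither gene did an L library reach a WT library, and *Hoxa6* missed the threshold without WT library 10 (log2 fold change −2.98). *Hoxa4* was at 3.03, 1.12 and 1.53 CPM in WT skin and 1.04, 1.16, 0.463 and 0.522 in L skin, groups that overlapped (log2 fold change −1.25, SE 0.45, adjusted p = 0.0489, edgeR), and it missed the threshold when any one of L libraries 4, 6 and 7, WT libraries 8 and 10 and NL libraries 2 and 3 was left out (adjusted p = 0.0511, 0.101 and 0.0982 for the L libraries).

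The anterior members of cluster A did not pass the test against WT skin. *Hoxa2*, which patterns the second pharyngeal arch, was at 1.41, 0.973 and 1.14 CPM in WT skin, 2.10 and 1.28 in NL skin and 2.44, 1.95, 0.419 and 1.03 in L skin. L libraries 4 and 5 exceeded every WT library and library 6 lay below every one, so the groups overlapped. *Hoxa3* was at 2.87 to 3.53 CPM in WT skin and at 1.06, 2.47, 0.375 and 1.32 in L skin, with an adjusted p of 0.0689 (edgeR) that became 0.0128 without L library 5. It shares 27.1% of its exonic bases with other genes, which makes its values uncertain.

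**Figure D2:**
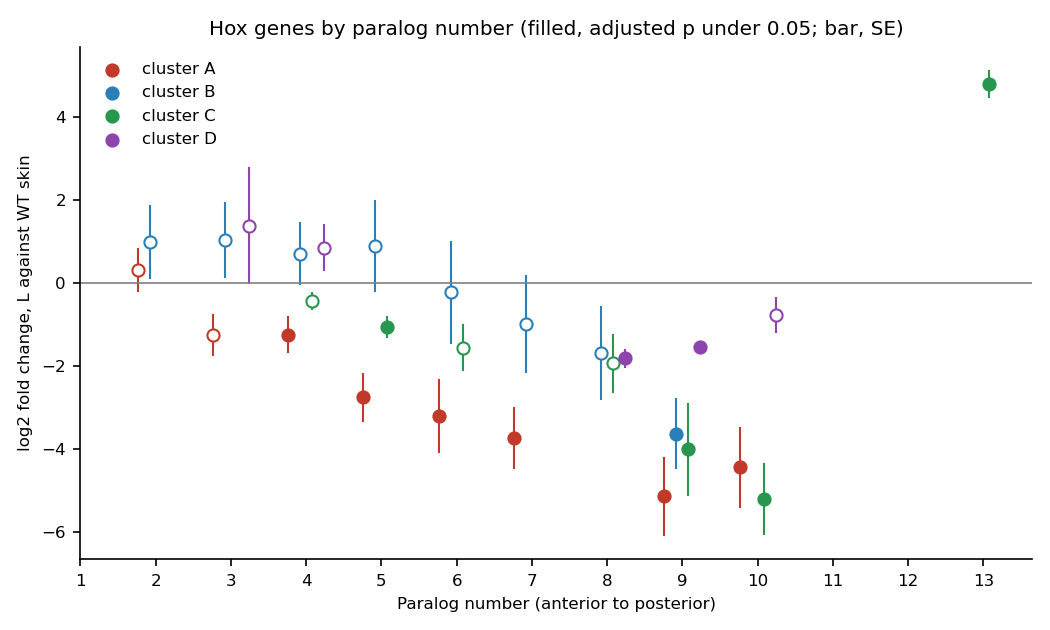
log2 fold change between L and WT skin (vertical axis, bars show SE) of 28 tested Hox genes against paralog number (horizontal axis), coloured by cluster, with filled points at an adjusted p under 0.05. Values lie above 0 at paralog 2 and between −0.77 and −5.21 at paralogs 9 and 10, and *Hoxc13* stands at 4.79.

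Cluster B was divided by both paralog number and library. Only *Hoxb9*, a posterior gene of the thoracic region, passed the test: it was at 6.11, 3.97 and 3.49 CPM in WT skin, 4.93 and 6.67 in NL skin and 0.0182, 0.0987, 0.992 and 0.342 in L skin. No L library came near a WT or NL library (log2 fold change −3.64, SE 0.86, adjusted p = 0.010, edgeR).

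*Hoxb2*, which acts in the hindbrain and facial nerve, was at 6.27, 4.89 and 5.49 CPM in WT skin, 9.69 and 9.42 in NL skin and 0.382, 15.2, 10.2 and 18.1 in L skin. *Hoxb3* was at 4.58, 4.72 and 2.69 CPM in WT skin, 6.44 and 6.30 in NL skin and 0.255, 12.0, 8.33 and 12.4 in L skin, and *Hoxb4*, a gene also used by blood progenitors, at 3.85, 2.09 and 3.07, 3.94 and 3.83, and 0.382, 7.97, 4.85 and 6.54 CPM. In all 3 genes, L libraries 5, 6 and 7 lay above every WT and NL library and library 4 below every other library. With library 4 in the fit, none of the 3 passed (adjusted p = 0.408, 0.393 and 0.477, edgeR). Without it, they were higher than in WT skin by 1.38 (*Hoxb2*, adjusted p = 0.00211), 1.45 (*Hoxb3*, adjusted p = 0.00333) and 1.10 (*Hoxb4*, adjusted p = 0.0153) on the log2 scale in the same test. Library 4 is the library with the low values in these genes, so a fit without it cannot decide whether L skin as a group was higher. In 17 of 18 alternative fits the outcome of each gene was that of the main fit. Of the exonic bases of *Hoxb3* 52.9%, and of those of *Hoxb2* 27.3%, overlap the antisense gene *Hoxb3os*, and whether strand was used in counting is not given in the sources used here.

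The central genes *Hoxb5* to *Hoxb8* differed strongly among L libraries. *Hoxb7* was at 7.55, 5.94 and 5.09 CPM in WT skin, 9.73 and 7.85 in NL skin and 0, 0.493, 4.78 and 7.12 in L skin. *Hoxb8* was at 6.02, 3.73 and 3.76 CPM in WT skin, 7.70 and 7.97 in NL skin and 0.0182, 0.148, 1.15 and 4.22 in L skin. For both, library 4 held almost no reads, library 5 few, and library 7 lay within the WT range. *Hoxb6* followed the same order, with 0, 0.419, 1.5 and 6.90 CPM in L libraries 4 to 7. *Hoxb5*, *Hoxb6*, *Hoxb7* and *Hoxb8* had adjusted p-values between 0.262 and 0.896 against WT skin (edgeR), and *Hoxb8* alone passed when L library 7 was left out (adjusted p = 0.0348).

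**Figure D3:**
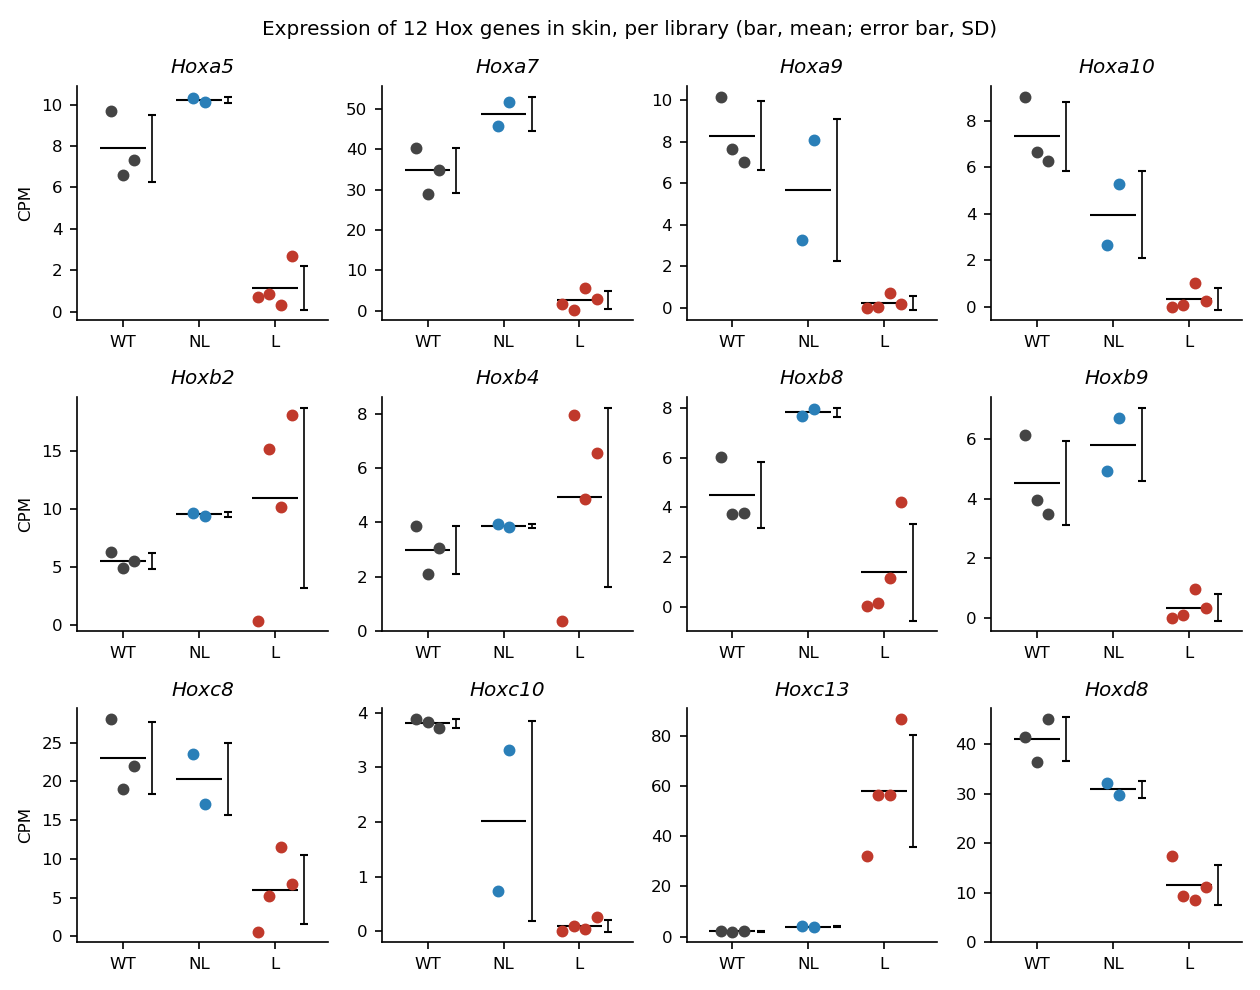
CPM of 12 Hox genes (panels, vertical axis starting near 0) in WT (n = 3), NL (n = 2) and L (n = 4) skin, with points for libraries, horizontal bars for means and error bars for SD. *Hoxa7*, *Hoxa9*, *Hoxb9* and *Hoxc10* sit near 0 in all L libraries, *Hoxb2* and *Hoxb4* are high in 3 L libraries and near 0 in 1, and *Hoxc13* is 32.2 to 86.8 CPM in L skin against at most 4.07 elsewhere.

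In cluster C, *Hoxc10*, a posterior gene of lumbar and hindlimb regions, was at 3.88, 3.82 and 3.71 CPM in WT skin, 0.726 and 3.31 in NL skin and 0, 0.0987, 0.0441 and 0.252 in L skin. It was near 0 in every L library and showed the lowest log2 fold change of the tested members, −5.21 (SE 0.86, adjusted p = 0.00187, edgeR). *Hoxc9*, a thoracic gene, was at 3.44, 3.56 and 3.49 CPM in WT skin, 2.56 and 2.7 in NL skin and 0, 0.0493, 0.815 and 0.0180 in L skin (log2 fold change −4.01, SE 1.12, adjusted p = 0.0207, edgeR). Both had a narrow range in WT skin and no L library within it. *Hoxc5* fell less, from 7.50, 5.11 and 6.73 CPM in WT skin to 2.09, 2.96, 3.08 and 4.25 in L skin (log2 fold change −1.06, SE 0.27, adjusted p = 0.0143, edgeR), and shares 5.37% of its exonic bases with *Hoxc10*. It missed the threshold without WT library 8 (log2 fold change −0.93).

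*Hoxc8*, the highest member of the cluster per kilobase in WT skin, was at 28.1, 19.1 and 22 CPM in WT skin, 23.6 and 17.1 in NL skin and 0.583, 5.25, 11.5 and 6.77 in L skin. *Hoxc6*, a forelimb-level gene, was at 14.8, 10.9 and 13.5 CPM in WT skin, 13 and 10.0 in NL skin and 0.765, 4.09, 6.96 and 5.95 in L skin. Every L library was below every WT and NL library in both genes, and library 4 was the lowest. Neither passed with all libraries (adjusted p = 0.0587 for *Hoxc8* and 0.0559 for *Hoxc6*, edgeR), and both did without L library 4 (0.00520 and 0.00446) or library 6 (0.0331 and 0.0465). *Hoxc4*, the lowest-numbered member of the cluster, differed least, with 3.35 to 3.72 CPM in WT skin and 1.77 to 3.11 in L skin (log2 fold change −0.44, SE 0.22, adjusted p = 0.142, edgeR).

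*Hoxc13* was at 2.19, 1.97 and 2.13 CPM in WT skin, 4.07 and 3.92 in NL skin and 32.2, 56.4, 56.2 and 86.8 in L skin. All L libraries were above all others, and the log2 fold change against WT skin was 4.79 (SE 0.34, adjusted p = 6.8e-05, edgeR), a 27.6-fold higher level. Hair shaft markers moved with it: 14 of 14 tested genes of that list, mostly hair keratins, rose in L skin against WT skin, and their summed level was 23.7 to 28.6 CPM in WT skin (with *Krt34* at 0 in all 3), 36.4 to 38 in NL skin and 2048 to 6511 in L skin. The same L library, 4, was lowest in *Hoxc13* and in the hair shaft list, at a mean log2 CPM of 6.42 against 7.55 to 7.97 in the others, and the same library, 7, was highest in both. The part of hair follicle content in the *Hoxc13* value was not tested.

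In cluster D, *Hoxd8* and *Hoxd9* were lower in L skin. *Hoxd8* was at 41.5, 36.4 and 45.2 CPM in WT skin, 32.2 and 29.7 in NL skin and 17.4, 9.28, 8.53 and 11.2 in L skin. *Hoxd9* was at 10.3, 10.3 and 11.4 CPM in WT skin, 9.54 and 9.39 in NL skin and 4.11, 3.82, 3.15 and 3.53 in L skin. No L library reached a WT or NL library in either gene, and library 4 was the highest L library for both. The log2 fold changes against WT skin were −1.82 (SE 0.23, adjusted p = 0.000549, edgeR) for *Hoxd8* and −1.55 (SE 0.14, adjusted p = 0.000158, edgeR) for *Hoxd9*. *Hoxd10*, at 1.14 to 2.58 CPM in WT skin and 0.492 to 1.52 in L skin, and *Hoxd3* and *Hoxd4*, at 1.09 CPM or less in every skin library, did not pass. *Hoxd3* and *Hoxd4* share 62.8% and 52.3% of their exonic bases with other genes, among them each other, and their values are uncertain for that reason.

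Summed by class, anterior Hox expression was 13 to 17.8 CPM in WT skin, 21.9 and 24.5 in NL skin and 6.55, 33.2, 19.8 and 33.9 in L skin. Central expression was 127 to 171 CPM in WT skin, 155 and 167 in NL skin and 27.6, 37.2, 53.4 and 66.3 in L skin. Posterior expression without *Hoxc13* was 36.8 to 45.8 CPM in WT skin, 25.5 and 37.0 in NL skin and 4.62, 5.80, 8.46 and 5.42 in L skin. The anterior sums of L skin thus lay on both sides of WT skin, and the central and posterior sums lay below it in each L library. In L library 4, posterior members of clusters A, B and C other than *Hoxc13* came to 0.0182 CPM in all, and the highest detected paralog without *Hoxc13* was 7 in cluster A, 8 in cluster C and 9 in cluster D, with none detected in cluster B. L library 6 kept detectable members up to paralog 10 in cluster A and 9 in clusters B and C.

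**Figure D4:**
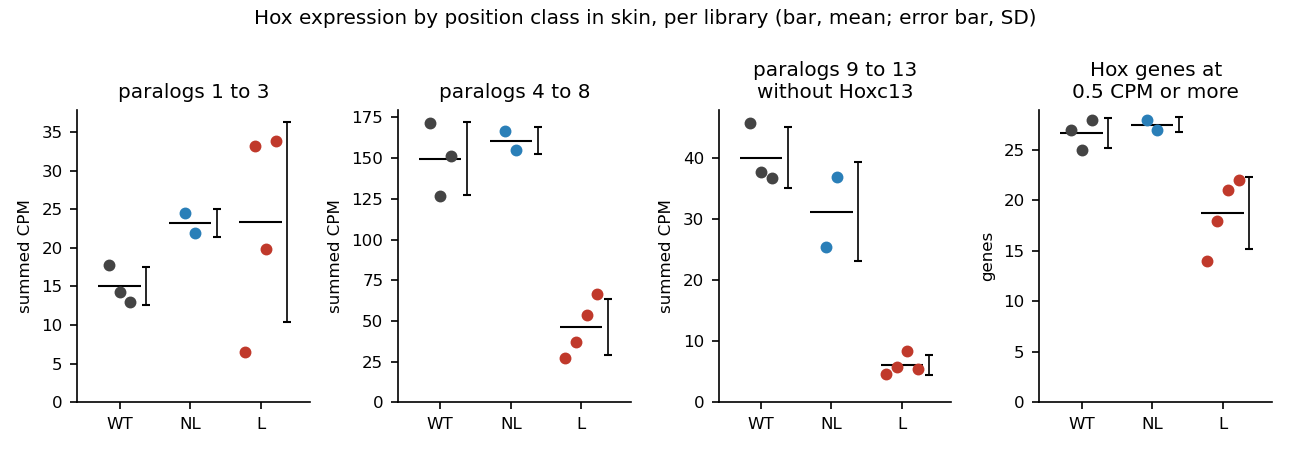
Summed CPM of anterior, central and posterior Hox genes (posterior without *Hoxc13*) and the number of Hox genes at 0.5 CPM or more (vertical axes) in each skin library, by group, with means and SD. Central and posterior sums of all 4 L libraries lie below the WT and NL libraries, and 14 to 22 Hox genes are detected in L skin against 25 to 28 in the other libraries.

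Hox genes varied widely among the L libraries. The median SD of log2 CPM within L skin was 1.54 over the 29 tested Hox genes and 0.32 over all 19101 tested genes, and 28 of the 29 exceeded the latter. In WT skin the medians were 0.29 and 0.20, and in NL skin 0.22 and 0.14. The lowest and highest L libraries differed by more than 2 log2 units for 20 of 29 Hox genes and for 14.4% of all tested genes. These comparisons were not matched for expression level. Some of the Hox genes were near 0 in L skin, such as *Hoxa6* (0 to 0.162 CPM) and *Hoxc10* (0 to 0.252 CPM), where a few counts shift log2 values widely. Markers of fibroblasts, which carry most Hox expression in skin, had a mean log2 CPM over 12 genes of 7.30 to 7.91 in WT skin, 6.91 and 7.51 in NL skin and 6.96 to 7.85 in L skin, and 2 of the 12 were lower in L than in WT skin. With the fibroblast level as a covariate, 11 Hox genes passed against WT skin (edgeR), while *Hoxc5* (−0.88) and *Hoxc9* (−4.80) kept log2 fold changes near those without it and narrowly missed the threshold (adjusted p = 0.0513 and 0.0509). Muscle markers were at a mean log2 CPM of 9.00, 1.06, 4.74 and 6.86 in L libraries 4 to 7. The part of muscle and other tissue content in the Hox values was not tested.

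L and NL skin were compared next, a contrast within the transgenic genotype. Of the 29 members, 10 were lower and 1 higher in L skin (adjusted p under 0.05, edgeR), where 11.8% of all tested genes were lower and 13.2% higher. All L libraries lay below both NL libraries for 18 members, which held for 24.7% of tested genes. The members called were *Hoxa5*, *Hoxa6*, *Hoxa7*, *Hoxa9*, *Hoxa10*, *Hoxb9*, *Hoxc5*, *Hoxd8*, *Hoxd9* and *Hoxc10*, all lower, and *Hoxc13*, higher. These 11 were all also called against WT skin, whose 13 calls added *Hoxa4* and *Hoxc9*, and the 2 comparisons share the L libraries.

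The largest differences from NL skin were −4.61 on the log2 scale for *Hoxa9* (SE 0.98, adjusted p = 0.0125, edgeR), −4.29 for *Hoxc10* (SE 0.89, adjusted p = 0.0106) and −4.24 for *Hoxa7* (SE 0.79, adjusted p = 0.00805). *Hoxc13* was higher by 3.86 (SE 0.38, adjusted p = 0.000784, edgeR). *Hoxd9* and *Hoxd8*, with the smallest errors, were lower by 1.37 (SE 0.16) and 1.41 (SE 0.25) and had adjusted p-values of 0.00119 and 0.00583 (edgeR). The anterior genes again gave no call: *Hoxb2* differed by 0.20 (SE 0.99) and *Hoxb3* by 0.37 (SE 1.02), and *Hoxa3*, at −1.58 (SE 0.54), had an adjusted p of 0.0632 (edgeR). This contrast rests on 2 NL libraries, and the number of members called was 5 without NL library 2 and 3 without NL library 3, with the lone NL library then assumed to vary like the other groups.

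NL and WT skin, both free of lesions, were compared last. No Hox gene passed the test (0% of 19101 genes were called by edgeR), with 1 of 29, *Hoxc13*, at an unadjusted p under 0.05, and DESeq2 called 79 genes but no Hox gene. The median log2 fold change was 0.37 over the Hox genes and 0.00 over all genes. Both NL libraries were above all 3 WT libraries for 10 members, which held for 18.6% of tested genes, and below for 5, which held for 16.3%. The 10 were *Hoxa5*, *Hoxa6*, *Hoxa7*, *Hoxb2*, *Hoxb3*, *Hoxb6*, *Hoxb7*, *Hoxb8*, *Hoxc4* and *Hoxc13*, and the 5 were *Hoxa10*, *Hoxc9*, *Hoxc10*, *Hoxd8* and *Hoxd9*. *Hoxc13* was the nearest to the threshold, at 3.92 and 4.07 CPM in NL skin against 1.97 to 2.19 in WT skin (log2 fold change 0.93, SE 0.34, adjusted p = 0.599, edgeR). The 2 NL libraries parted at *Hoxc10* (0.726 and 3.31 CPM), *Hoxa9* (3.27 and 8.09 CPM) and *Hoxa10* (2.64 and 5.27 CPM), with library 2 below every WT library in each.

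Other genes of the Hox pathway moved in both directions between L and WT skin, and their counts are to be read against the 23.0% of all tested genes that were higher and the 20.2% that were lower. Among 9 cofactors, the Pbx, Meis and Pknox proteins that bind DNA with Hox factors, 2 were higher and 4 lower in L than in WT skin, with a median log2 fold change of −0.07. *Pknox2* fell most, from 16.1 to 32.4 CPM in WT skin to 2.33 to 7.72 in L skin (log2 fold change −2.62, SE 0.45, adjusted p = 0.00252, edgeR), *Meis3* (−1.06) and *Meis2* (−0.76) fell less, and *Pbx3* (0.43) rose. Among 16 chromatin regulators of Hox clusters, 7 were higher and 4 lower. *Ezh2*, the methyltransferase of Polycomb repressive complex 2, rose from 14.6 to 18.1 CPM in WT skin to 31.8 to 41.3 in L skin (log2 fold change 1.07, SE 0.13, adjusted p = 0.000418, edgeR), and *Cbx2*, a Polycomb reader, from 10.7 to 16.3 to 26.8 to 38.1 CPM (1.22, SE 0.18, adjusted p = 0.00103). *Cbx8* (0.81), another Polycomb reader, rose, and *Cbx7* (−0.86) of the same family fell. None of the 6 tested genes among 10 Hox inducers (retinoic acid, Cdx and related factors) was called by edgeR in L against WT skin (1 at an unadjusted p under 0.05, 0 with DESeq2), and *Cdx2* and *Cdx4* had 0 counts in every skin library.

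A list of 20 transcription factors of head skin and cranial neural crest and a list of 12 of trunk and limb skin were set beside the Hox genes. In the head list, 7 of 18 tested genes were higher and 5 lower in L than in WT skin, with a median log2 fold change of 0.99. Over all tested genes, 23.0% were higher and 20.2% lower. The largest differences were those of *Otx1*, a forebrain and craniofacial factor, at 0.0684 CPM or less in WT skin and 1.31 to 5.83 in L skin, and of *Dlx1*, *Dlx2* and *Dlx4*, factors of the facial arches. *Dlx4* was at 0.0495 to 0.190 CPM in WT skin and 4.41 to 14.7 in L skin (log2 fold change 5.97, SE 0.66, adjusted p = 0.000325, edgeR), and *Dlx1* and *Dlx2* were at 0.0912 CPM or less in WT skin and at 1.88 to 6.28 and 2.99 to 9.93 in L skin. *Dlx3*, named after its values were seen, was at 7.60 to 11.2 CPM in WT skin and 66.6 to 230 in L skin. Dlx genes are also expressed in hair follicles, and the hair shaft markers rose with them (14 of 14 tested, 23.7 to 28.6 summed CPM in WT skin and 2048 to 6511 in L skin). The summed head list, at 107.5, 128, 204 and 279 CPM in L libraries 4 to 7, was lowest and highest in the same libraries as the hair shaft list, whose part in it was not tested. On average most of this sum was *Dlx3* alone, with a mean of 140.9 CPM in L skin. Among the members that fell, and named here after their values were seen, were *Pax7* (−5.86), *Six2* (−3.80) and *Dlx6* (−3.56), and *Pax7* is also expressed in muscle, whose markers fell in L skin.

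In the trunk and limb list, 5 of 12 genes were lower in L than in WT skin and 0 higher (edgeR, with 0 higher at an unadjusted p under 0.05 and 0 with DESeq2), with a median log2 fold change of −0.89. These counts stand against 20.2% lower and 23.0% higher over all tested genes. *Tbx15*, a factor of dorsal trunk skin, was at 99.97 to 142 CPM in WT skin, 98.9 and 99.0 in NL skin and 20.9 to 65.6 in L skin (log2 fold change −1.77, SE 0.35, adjusted p = 0.00495, edgeR). *Sim1* was at 2.75 to 6.26 CPM in WT skin, 2.39 and 2.72 in NL skin and 0.127 or less in L skin (−6.15, SE 0.64, adjusted p = 0.000257). *Tbx4* (−2.90) and *Pitx1* (−2.31), both hindlimb identity factors, fell as well. By library, the mean log2 CPM of this list was 0.98 to 1.34 in WT skin, 0.80 and 0.75 in NL skin and 0.42, −1.46, −0.44 and −0.41 in L libraries 4 to 7. Muscle markers, at 9.00, 1.06, 4.74 and 6.86 in the same 4 libraries, had the same order, and their part in the list's level was not tested.

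In inguinal lymph nodes, Hox expression was low. Between 2 and 9 of the 39 members were detected per library, all 39 together came to 5.06 to 15.4 CPM, and 12 members were tested. *Hoxb4* had the highest mean over the 12 libraries, at 1.24, 1.41 and 1.78 CPM in unirradiated WT nodes, 1.5, 1.34 and 1.81 in WT nodes after UVB, 1.68, 2.47 and 2.22 in unirradiated TG nodes and 1.51, 1.25 and 2.14 in TG nodes after UVB. *Hoxa7* was at 1.12, 0.847 and 1.14, at 1.74, 1.35 and 0.674, at 1.43, 1.82 and 0.893, and at 0.930, 2.23 and 0.795 CPM in the same order of groups. For both genes the 4 groups overlapped. Per kilobase the order was the same, with a mean of 0.661 CPM for *Hoxb4* and 0.433 for *Hoxa7*.

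*Hoxd9* was at 0.815, 0.533 and 0.522 CPM in unirradiated WT nodes and 0.420, 0.145 and 0.214 after UVB, groups that did not overlap, and at 0.486, 0.511 and 0.519 in unirradiated TG nodes and 0.436, 1.32 and 0.336 after UVB. *Hoxd8* was at 0.272 to 0.627, 0.245 to 0.436 and 0.432 to 0.851 CPM in the first 3 of these groups and at 0.320, 3.20 and 0.275 in TG nodes after UVB. The high value in both genes belongs to TG UVB library 11. In that library *Hoxa9* (1.18 CPM, 34 counts) and *Hoxa10* (0.940 CPM, 27 counts), which were not tested, stood against at most 4 counts in each of the other 11 libraries, and *Hoxb6* and *Hoxb8* against at most 3 and 5. Library 11 was also the highest node library in skeletal muscle markers, at a mean log2 CPM of −1.80 against −3.37 to −2.56 in the others and with 7.17 summed CPM, and the part of tissue carried along with the node was not tested.

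UVB in WT nodes gave the only Hox call in this tissue. *Hoxb7*, expressed in skin at several CPM, had 14, 11 and 13 counts without irradiation (0.422, 0.345 and 0.399 CPM) and 3, 2 and 0 counts after UVB (0.0901, 0.0727 and 0 CPM), and the groups did not overlap. The ratio of summed counts, 38 against 5 and scaled to library totals, was 7.12 with a 95% exact binomial interval of 2.80 to 23.2 that covers counting error only, and the adjusted p was 0.0401 (edgeR's quasi-likelihood test). Among all 16173 tested genes 2.06% were lower after UVB at this threshold. In TG nodes *Hoxb7* had 15, 18 and 10 counts without and 9, 16 and 9 after UVB. Lymph node stroma and fibroblast markers moved with UVB in WT nodes: the summed level of 10 stroma genes was 106 to 139 CPM before and 30.5 to 82.3 after, and 1 of the 10 was called lower. With the stroma level as a covariate the log2 fold change of *Hoxb7* was −2.72 (SE 0.94, adjusted p = 0.414), against −2.77 (SE 0.68) without it. The adjusted p also exceeded 0.05 when any of the 6 WT node libraries, or unirradiated TG library 4 or 6, was left out (0.0540 to 0.154 and 0.0591 and 0.0582).

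**Figure D5:**
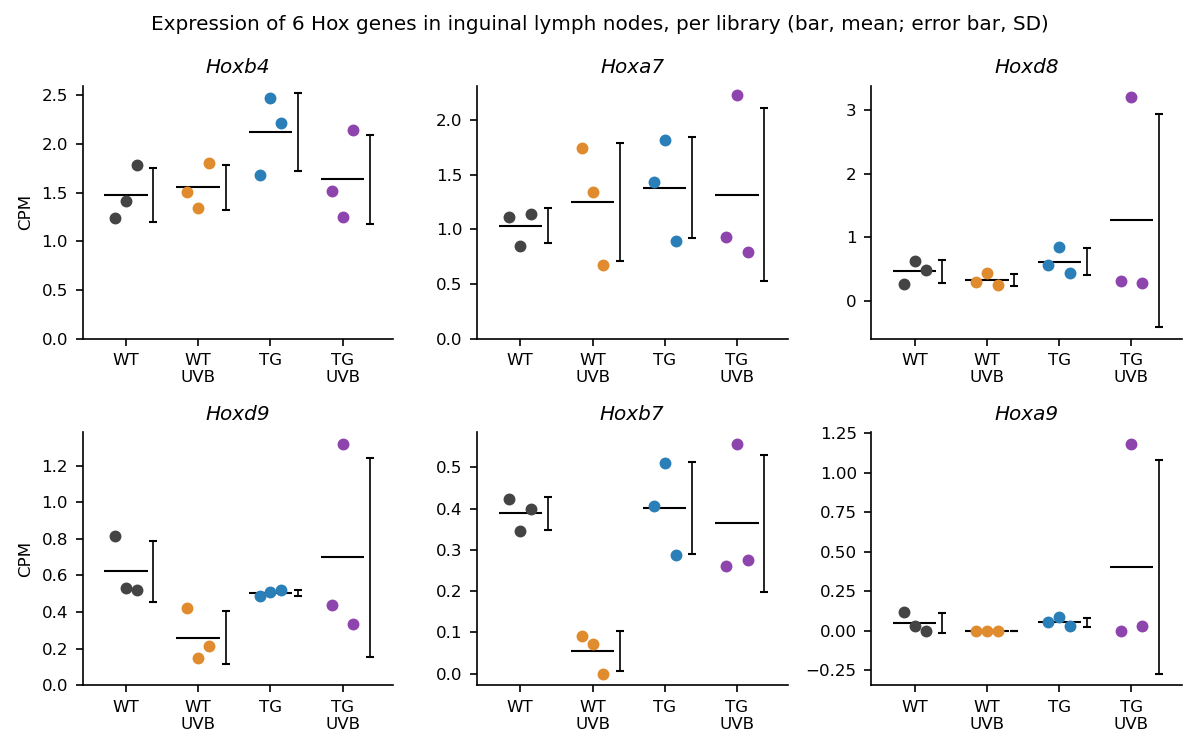
CPM of 6 Hox genes (vertical axis) in lymph node libraries of WT and *Ifnk* TG mice without and with UVB (n = 3 per group), with points for libraries, bars for means and error bars for SD. *Hoxb7* is at most 0.0901 CPM in WT nodes after UVB and at least 0.262 CPM elsewhere, and library 11 stands above the other TG UVB libraries in *Hoxd8*, *Hoxd9* and *Hoxa9*.

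No Hox gene was called in the other node comparisons, in which edgeR called 0% of the tested genes: UVB in TG nodes (2 members at an unadjusted p under 0.05), TG against WT nodes without irradiation (2) and after UVB (4), and the difference in UVB response between genotypes (3). DESeq2 called 137, 2, 19 and 8 genes in these comparisons, and no Hox gene. Differences in the 27 members below the count filter were not detectable at this depth.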

How the data were processed

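Whole-tissue, poly-A selected RNA of 9 skin and 12 lymph node samples had been sequenced, and per the labels and the submitters' processing notes reads were trimmed with cutadapt 4.8, aligned with STAR 2.7.8a to GRCm38 and quantified with RSEM 1.3.3, with FastQC 0.11.8 and MultiQC 1.20 for quality. The values deposited by the authors are RSEM expected counts per gene, already rounded to whole numbers. The annotation release and the strandedness of counting are not given in the sources used here. No library stood as a copy of another.

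Each tissue was fitted over all its groups with edgeR 4.0.16 (R 4.3.3): TMM scaling, filterByExpr (at least 10 counts and 15 in total), the robust quasi-likelihood test, and Benjamini-Hochberg adjustment over all tested genes. The SE is the log2 fold change divided by the square root of F. Exonic lengths and overlaps came from GENCODE M21, in which all 39 members matched by identifier. RefSeq promoter windows existed for 22 members. DESeq2 1.42.0, other scalings and filters, covariates and left-out libraries were alternatives, and the fit was tested on simulated data. Intervals and the floor of 3 counts cover counting error only.

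Members and gene lists were chosen with earlier results of these data known. Per-library values are given for the 2 members of each cluster highest in WT skin, members called (up to 12 per comparison), *Hoxc13* and the 4 highest node members. Outside this rule, values in L libraries are also given for *Hoxa2*, *Hoxa3*, *Hoxb3*, *Hoxb4*, *Hoxb6* and *Hoxb8*. Other lists are given by counts and up to 4 called genes with the largest change. A few genes are not reported here by name.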

Additional observations from a re-analysis of the deposited data

Results flagged for a closer look

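*Hoxc9* in L skin had 1 library far from the others: library 6 was at 0.815 CPM and the other 3 at 0, 0.0180 and 0.0493 CPM. Among 18 members examined at both ends of the L group this was the only such gap. Chance flags about 1 in 20 groups, so 1 flag among 18 members is about as many as chance gives.

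*Hoxa5*, at 2 to 13 counts per node library, was higher in every WT library and lower in every *Ifnk* TG library after UVB, though neither change was called (adjusted p = 0.115 in WT and 0.534 in TG nodes, edgeR's quasi-likelihood test). It was at 0.151, 0.0627 and 0.0921 CPM without and 0.390, 0.182 and 0.337 CPM after UVB in WT nodes, and at 0.351, 0.312 and 0.375 CPM without and 0.233, 0.0696 and 0.153 CPM after UVB in TG nodes. The difference between the responses was −2.69 on the log2 scale (TG minus WT, SE 0.78), and it did not pass the correction over all genes (adjusted p = 0.848, edgeR's quasi-likelihood test).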

How the results depend on the processing

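The number of Hox genes called in L against WT skin was 13, and 8 when at least 10 counts were required in every library or at an adjusted p under 0.01. Leaving out 1 library at a time gave 11 to 17. In L against NL skin it was 11, and 5 with 10 counts in every library, 7 with only the groups compared, 5 at an adjusted p under 0.01, and 3 to 12 with 1 library left out. The lowest values, 5 and 3, came without NL library 2 and NL library 3. For UVB in WT nodes the count was 1, and 0 with DESeq2, with 10 counts in every library, with the lymph node stroma covariate and at an adjusted p under 0.01, and 0 to 1 with 1 library left out. The 10-count filter tested fewer members (17 in skin, 2 in nodes). For UVB in WT nodes DESeq2 gave an adjusted p for only 2 of the 12 members. *Hoxb7* was not among them, and its log2 fold change with DESeq2 was −2.86. The cause of the other shifts was not tested. No direction was reversed, and the other comparisons stayed at 0 calls under every alternative run. The limits are the 2 NL libraries, the L libraries that differ from each other, and the few Hox counts in nodes. No paired analysis was possible because the replicate numbers in the labels are library numbers, each used once within a tissue, so the groups compared share none.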
